A study of Homo sapiens with 8 samples.

Results

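The proteasome is described here through 48 of the 16383 genes in the deposited count table, chosen by gene name as the subunits of the 19S regulatory particle and the 20S core, the immunoproteasome subunits, the proteasome activators and the factors that assemble the particles. PSMD3, the lid subunit that the series title names, is not among them. The RNA was sequenced from MDA-MB-231, an established human breast cancer cell line of mesenchymal character. Cells in DMEM with serum and antibiotics received c-di-GMP at 5 µM, or PBS as the vehicle, for 24 h, and each treatment gave 4 libraries. c-di-GMP serves bacteria as a signalling nucleotide, and in mammalian cells the innate immune adaptor STING binds it.

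The proteasome degrades proteins marked with ubiquitin. Its 20S core is a barrel of alpha rings, which gate the entry, and beta rings, which hold the catalytic sites, and the 19S particle on its ends binds, deubiquitinates and unfolds the substrates. In immune signalling, interferon induces 3 alternative catalytic subunits and a separate cap that favour the making of peptides for antigen presentation. Dedicated chaperones assemble both particles, and the transcription factor NFE2L1 raises proteasome genes together when degradation is impaired.

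The libraries held 16151360 to 18040010 counts, so that a floor of 3 counts stood at 0.166 to 0.186 CPM (counts relative to the size of the library), which covers counting error only. All 48 genes were listed and tested, and the least covered of them had 947 counts over the 8 libraries. Vehicle replicate 3 stood apart: its log2 CPM correlated with those of the other libraries across genes at r = 0.849 to 0.867, against 0.989 to 0.995 among the other 7. It listed 465 genes at 0, against 2 to 9 elsewhere, and the shortest 25% of genes took 28.4% of its counts, against 13.8 to 15.6%. The 48 genes took 1.39% of its counts, against 0.595 to 0.661% in the other libraries. Results are therefore given for all 8 libraries and for the 7 without it, and its own CPM values, on the scaling of all 8 libraries, are shown apart. No label states that the libraries of a treatment are separate cultures, and the p-values therefore reflect library-to-library spread alone, which may be technical. All 5 mesenchymal markers checked were listed, with VIM at 638 to 813 CPM in the 7 libraries, while of 6 luminal markers ESR1, PGR and FOXA1 were absent from the table and CDH1, EPCAM and GATA3 lay at 1.97 to 4.11, 11.7 to 15.9 and 9.53 to 14.5 CPM.

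The question put to the data is how c-di-GMP changed the RNA of proteasome genes. With vehicle 3 left out, 24 of the 48 genes were higher with c-di-GMP and 3 were lower, where 13.5% of all 15647 genes tested were higher, 16.2% lower and 29.6% either (edgeR's quasi-likelihood test, Benjamini-Hochberg adjusted p under 0.05). No gene of the 48 differed by more than 0.41 on the log2 scale, which is used for every fold change below. Higher were members of both rings of the core and of the base and lid of the regulatory particle. Also higher were 3 of 4 activators, 3 of 5 core assembly factors and 2 of 4 factors that assemble the 19S base. Lower were ADRM1, a ubiquitin receptor, PSMB10, an immunoproteasome subunit, and PSMD9, an assembly chaperone. RNA came from whole cultures, in which fewer cells of a kind and less RNA per cell cannot be told apart.

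The median log2 fold change of the 48 genes was 0.12, against 0.00 for all genes, and 39 of the 48 were above 0, against 50.2% of all genes. CPM ranges of the treatments did not overlap for 25 of the 48 on the higher side (all genes 17.3%) and for 3 on the lower side (all genes 18.3%). The genes' summed share of the counts was 0.610 ± 0.0154% with vehicle (SD, n = 3), and c-di-GMP gave 0.650 ± 0.0130% (SD, n = 4). The lowest library with c-di-GMP, at 0.632%, lay above the highest with vehicle, at 0.626%. These shares were not corrected for GC or length. The share of the shortest 25% of all genes also separated, at 13.8, 14.9 and 14.2% in vehicle 1, 2 and 4 and 15.5, 15.2, 15.6 and 15.5% with c-di-GMP. The median summed exon length of the 48 was 3451.5 bases, against 4562 for all genes.

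Fold changes across all genes followed the GC content of the transcript, so the test was repeated after each library's GC trend had been taken out. Of the 48 genes, 13 were then higher and PSMD9 alone was lower, where 8.58% and 6.62% of all genes were called, 15.2% in either direction. The median became 0.08, against -0.00 for all genes. In both 7-library fits PSMD7, PSMA4, PSMB7, PSME2, PSME3, PSMG1 and PSMG2 were higher and PSMD9 was lower. When a trend on gene length was removed too, 10 of the 48 were higher (7.66% of all genes) and PSMB10 alone was lower (5.74% of all genes). PSMC3, ADRM1, PSMD7, PSMA7, PSMB7 and PSMG1, called higher after GC correction, did not pass there, while PSMD1, SEM1 and PSMB2 did. PSMA4, PSME2, PSME3 and PSMG2 were called higher in all 3 fits. The share of all genes called alike in both or in all 3 fits was not computed, so these joint counts have no measure beside them.

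**Figure D1:**
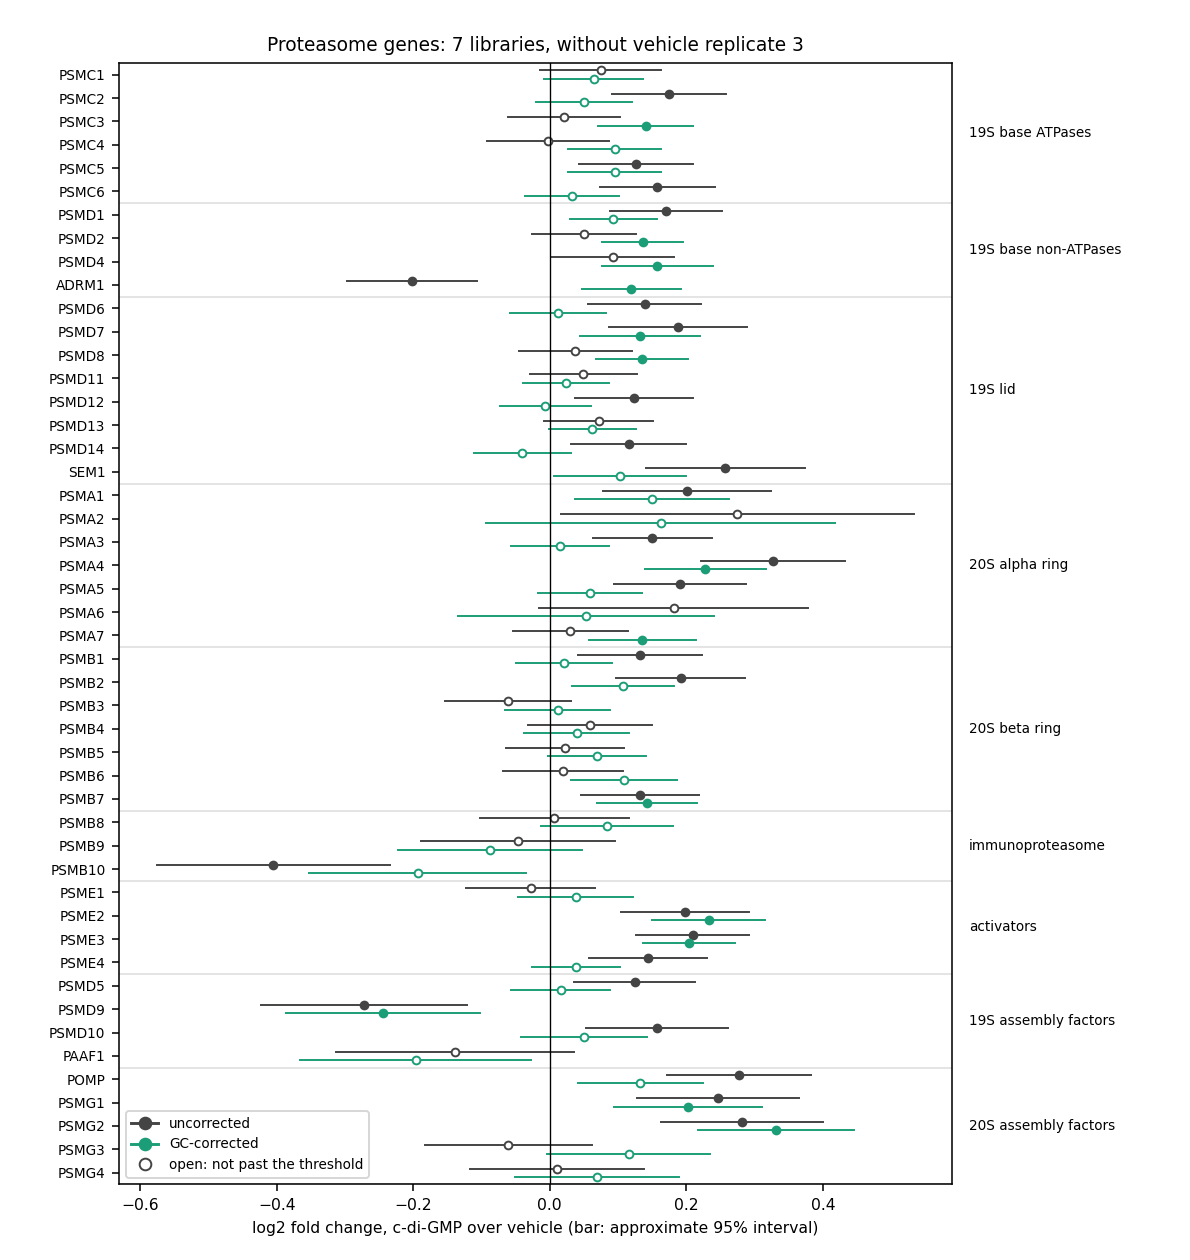
Log2 fold change (horizontal axis) of each of the 48 genes, c-di-GMP over vehicle in the 7 libraries without vehicle 3, with approximate 95% intervals, uncorrected (grey) and after GC correction (green). Filled points passed an adjusted p of 0.05: 24 higher and 3 lower uncorrected, and 13 higher and 1 lower after correction.

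With all 8 libraries, edgeR called 0% of the 15415 genes tested, and thus none of the 48, while 960 genes, among them PSMB10, PSME3 and PSMD9, had an unadjusted p under 0.05. DESeq2 called 0.227% of all genes higher and 0.642% lower on these libraries, and none of the 48. By limma-voom with library quality weights, which gave vehicle 3 a weight of 0.00874, 28 of the 48 were called, against 35.2% of all genes. The median log2 fold change of the 48 was -0.75 (all genes -0.05), and 32 of them had the opposite sign to the 7-library fit, against 36.7% of all genes. CPM ranges stayed apart for PSMD7, PSMD12, PSME3, PSME4 and PSMD5 on the higher side (all genes 6.93%) and for PSMB10 and PSMD9 on the lower side (all genes 7.29%).

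Levels per length were compared with FPKM, fragments scaled to gene length and library size, over the 7 libraries. The highest was PSMA7, an alpha ring subunit, at 162 ± 6.82 FPKM (SD, n = 7), followed by PSMD2, the base subunit that docks ubiquitin shuttles, at 145 ± 3.91 FPKM, and PSMC3, a base ATPase, at 101 ± 3.35 FPKM. The lowest was PSMA2, an alpha ring subunit, at 0.814 ± 0.0899 FPKM. Of the 47 pairs of neighbours in this order, 7 had ranges that did not overlap: those below PSMA7, PSMD2, PSMD6, PSMB10, SEM1, PSMG4 and PSMA6. All other neighbours overlapped.

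Subunits that share a ring at equal numbers in the particle differed in RNA level per length. The 7 beta ring genes lay close together, from 34.1 FPKM for PSMB2 to 97.3 FPKM for PSMB7, a 2.86-fold range of means over the 7 libraries. The alpha ring spanned a 199-fold range of FPKM. At its low end, PSMA2, PSMA6 and PSMA1 share 52.5%, 81% and 53.2% of the bases of their principal transcripts with other genes on the same strand, so that their levels are uncertain. FPKM divides by the summed length of all annotated exons, so that it is lower in genes with many isoforms. The beta ring made up 30.3 ± 0.348% (SD, n = 3) of the summed FPKM of the 48 genes in vehicle 1, 2 and 4, and 30.1 ± 0.197% (SD, n = 4) in the treated libraries, but 49.6% in vehicle 3. The share of the 19S base ATPases was 13.2 ± 0.397% with vehicle and 13.2 ± 0.215% with c-di-GMP, against 5.71% in vehicle 3. Without vehicle 3, the ranges of the treatments did not overlap for the core assembly factors, at 5.45 ± 0.165% with vehicle and 6.01 ± 0.170% with c-di-GMP. Nor did they for the immunoproteasome, at 1.84 ± 0.0750% and 1.64 ± 0.0617%, and they overlapped for the other groups. In vehicle 3 the core assembly factors were at 7.08%, above every treated library, and the immunoproteasome was at 3.13%. These FPKM shares were not corrected for GC. Each share also depends on the other genes in the sum. Within the immunoproteasome, without vehicle 3, the FPKM ranges of the treatments overlapped for PSMB8 and PSMB9, and only those of PSMB10 did not.

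**Figure D2:**
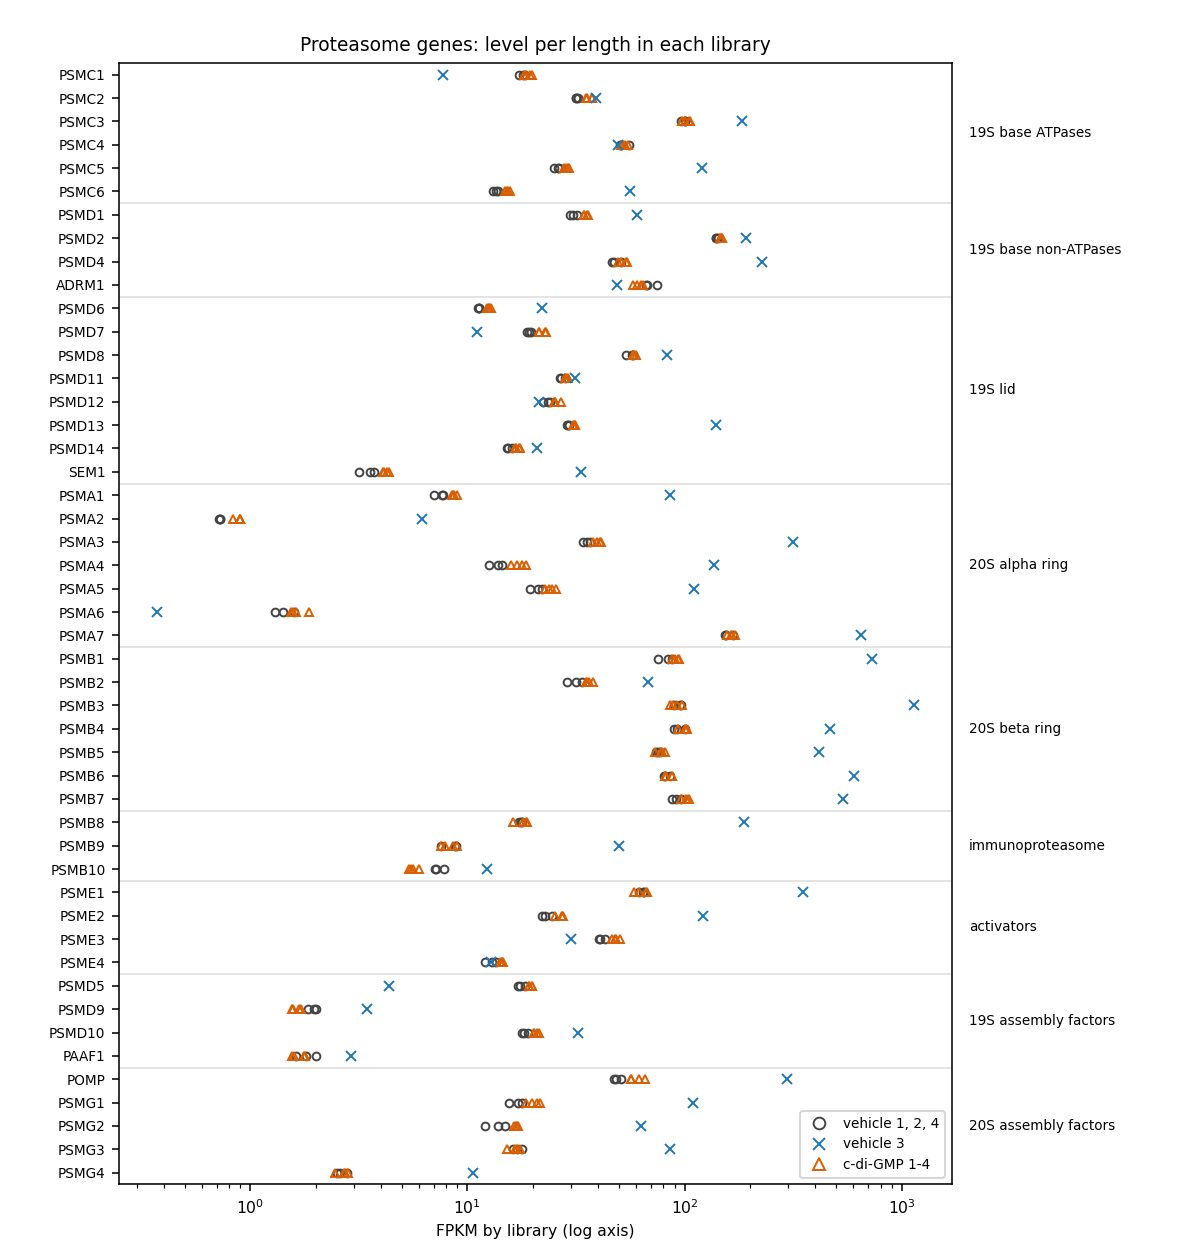
FPKM of each gene (log axis) by library, ordered by role: circles are vehicle 1, 2 and 4, triangles c-di-GMP 1 to 4, and crosses vehicle 3. Vehicle 3 lies away from the other 7 libraries for most 20S genes, and the means of the beta ring genes over the other 7 libraries lie within a 2.86-fold range.

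Of the 18 genes for 19S subunits, 9 were higher and 1 lower in the 7 libraries, and 6 were higher after GC correction. Of all genes, 13.5% were higher and 16.2% lower, and 8.58% were higher after correction. In the smaller groups below, a count of 1 gene says little beside these shares. Among the 6 base ATPases, which unfold the substrate, PSMC2, PSMC5 and PSMC6 were higher uncorrected and only PSMC3 was higher after correction. PSMC3 gave 247, 245 and 237 CPM in vehicle 1, 2 and 4, and in c-di-GMP 1 to 4 it gave 235, 242, 253 and 256 CPM, ranges that overlap. Its log2 fold change was 0.02 ± 0.04 (SE, adjusted p = 0.749) uncorrected and 0.14 ± 0.04 (adjusted p = 0.00766) corrected, but 0.08 (adjusted p = 0.114) with the length trend also removed. The 95% interval of the uncorrected value was -0.06 to 0.10, and the value turned to -0.0041 without c-di-GMP 4. PSMC2, PSMC5 and PSMC6 were at 0.17, 0.13 and 0.16 uncorrected and at 0.05, 0.10 and 0.03 corrected. PSMC1 and PSMC4 passed neither test, with intervals of -0.01 to 0.16 and -0.09 to 0.09, and 82.1% of the transcript of PSMC1 lies opposite exons of NRDE2.

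The base also holds PSMD1, PSMD2, PSMD4 and ADRM1, of which the last 3 receive ubiquitin or its shuttles. PSMD1, a scaffold of the base, rose by 0.17 ± 0.04 (SE, adjusted p = 0.00338) and was at 0.09 ± 0.03 (adjusted p = 0.0521) corrected and at 0.10 (adjusted p = 0.0343) with both trends removed, which passed. PSMD2 had 838, 818 and 816 CPM with vehicle and 854, 844, 855 and 859.7 CPM with c-di-GMP, so that every treated library was above every vehicle library of the 7. Its log2 fold change was 0.05 ± 0.04 (SE, adjusted p = 0.354), and 0.14 ± 0.03 (adjusted p = 0.00274) after GC correction. PSMD4, the receptor that binds ubiquitin chains directly, had 150.4, 165 and 155 CPM with vehicle and 158, 164, 174 and 173 CPM with c-di-GMP, and these overlapped. Its fold change was 0.09 ± 0.05 (SE, adjusted p = 0.14) uncorrected and 0.16 ± 0.04 (adjusted p = 0.0102) corrected. Without vehicle 2 the uncorrected value was 0.13 and passed the threshold (adjusted p = 0.0412).

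ADRM1 (chr20:62302093-62308862, plus strand, GRCh38) is the receptor that also recruits the deubiquitinase UCHL5. It had 173, 155 and 154 CPM in vehicle 1, 2 and 4, 108 CPM in vehicle 3 and 136, 143, 147 and 132 CPM with c-di-GMP. The treated libraries were all below vehicle 1, 2 and 4 and all above vehicle 3. Its log2 fold change turned from -0.20 ± 0.05 (SE, adjusted p = 0.00283) to 0.12 ± 0.04 (adjusted p = 0.0287) with GC correction, and was 0.05 (adjusted p = 0.401) with GC and length correction. At 64.2%, its transcript had the highest GC content of the 48, and 24.1% of the transcript's bases lie opposite exons of LAMA5 and another gene, whose reads cannot be told apart without strand.

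In the lid, which removes ubiquitin, 5 of 8 genes were higher uncorrected (all genes 13.5%) and 2 after correction (all genes 8.58%). PSMD7 (chr16:74296775-74306288, plus strand), the partner of the deubiquitinase PSMD14, had 55.3, 57.5 and 56.9 CPM in vehicle 1, 2 and 4, 31.6 CPM in vehicle 3 and 61.9, 62.0, 67.0 and 66.7 CPM with c-di-GMP. Every treated library was above every vehicle library, vehicle 3 included. It rose by 0.19 ± 0.05 (SE, adjusted p = 0.00764) uncorrected and by 0.13 ± 0.04 (adjusted p = 0.0469) corrected, but the value with the length trend also removed was 0.08 (adjusted p = 0.219). With all 8 libraries it was 0.35 ± 0.18 (SE, adjusted p = 0.623). Exons of a gene on the opposite strand cover 50.4% of its transcript.

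PSMD8, a lid subunit, had 192, 193 and 179 CPM with vehicle and 189, 192, 193 and 197 CPM with c-di-GMP, ranges that overlap. It was at 0.04 ± 0.04 (SE, adjusted p = 0.539) uncorrected and at 0.14 ± 0.03 (adjusted p = 0.00767) corrected. SEM1, the small acidic lid subunit, had the largest uncorrected rise of the lid at 0.26 ± 0.06 (SE, adjusted p = 0.002), and 0.10 ± 0.05 (adjusted p = 0.181) corrected, but it was called higher with both trends removed, at 0.16 (adjusted p = 0.0358). PSMD6, PSMD12 and PSMD14 were the other lid genes called higher, with uncorrected values of 0.14, 0.12 and 0.12, and corrected ones of 0.01, -0.01 and -0.04. PSMD11 and PSMD13 passed neither test, with uncorrected intervals of -0.03 to 0.13 and -0.01 to 0.15.

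Of the 14 genes for the 20S core, 7 were higher (all genes 13.5%) and none lower (16.2%), and 3 were higher after GC correction (8.58%). In the alpha ring PSMA1, PSMA3, PSMA4 and PSMA5 were higher. The largest uncorrected rise of the 48 genes was that of PSMA4 (chr15:78540405-78552419, plus strand), while in both corrected fits PSMG2 had the largest. PSMA4 stood at 94.9, 104 and 109 CPM in vehicle 1, 2 and 4, at 986 CPM in vehicle 3 and in the treated libraries at 125, 118, 138 and 133 CPM. Its treated libraries were all above vehicle 1, 2 and 4, and vehicle 3 was far above all 7. The log2 fold change was 0.33 ± 0.05 (SE, adjusted p = 6.64e-05) uncorrected, which is 25.4% in CPM, 0.23 ± 0.05 (adjusted p = 0.000857) corrected and 0.25 (adjusted p = 0.000168) with both trends removed. Over all 8 libraries the value was -1.39 ± 0.83 (SE, adjusted p = 0.623).

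PSMA7 had 289.7, 315 and 292 CPM with vehicle and 317, 292, 308 and 305 CPM with c-di-GMP, and the ranges overlapped. Its fold change was 0.03 ± 0.04 (SE, adjusted p = 0.64) uncorrected and 0.14 ± 0.04 (adjusted p = 0.0213) corrected, a call that was lost with both trends removed, at 0.05 (adjusted p = 0.334). PSMA2 had 4.15, 4.14 and 4.12 CPM with vehicle and 4.70, 5.11, 5.08 and 5.12 CPM with c-di-GMP. Every treated library was above the 3 vehicle libraries, but the difference of 0.27 ± 0.13 (SE, adjusted p = 0.122) did not pass the test at these low counts. PSMA3 and PSMA5 had uncorrected values of 0.15 and 0.19 and corrected ones of 0.01 and 0.06, which did not pass. PSMA1 rose by 0.20 ± 0.06 (SE, adjusted p = 0.0179) and was at 0.15 ± 0.06 (adjusted p = 0.0816) corrected. PSMA6 passed neither test, with an uncorrected interval of -0.02 to 0.38.

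In the beta ring, PSMB1, PSMB2 and PSMB7 were higher uncorrected and PSMB7 after correction. PSMB7 (chr9:124353466-124415444, minus strand), the subunit with trypsin-like activity, had 168, 183 and 176 CPM in vehicle 1, 2 and 4, 993 CPM in vehicle 3 and 182, 193, 198 and 197 CPM with c-di-GMP. The lowest treated library lay just below the highest of the 3 vehicle libraries. It rose by 0.13 ± 0.04 (SE, adjusted p = 0.0263) uncorrected and by 0.14 ± 0.04 (adjusted p = 0.00983) corrected, and was at 0.06 (adjusted p = 0.25) with both trends removed. The uncorrected call was lost without vehicle 1 (adjusted p = 0.0646), vehicle 4 (0.0752), c-di-GMP 3 (0.0840) or c-di-GMP 4 (0.108). PSMB5 and PSMB6, the subunits with chymotrypsin-like and caspase-like activity, were at 0.02 ± 0.04 (SE, adjusted p = 0.747) and 0.02 ± 0.04 (SE, adjusted p = 0.782). Their uncorrected 95% intervals were -0.06 to 0.11 and -0.07 to 0.11. After GC correction PSMB5 was at 0.07 (adjusted p = 0.228) and PSMB6 at 0.11 (adjusted p = 0.0665). With both trends removed they were at -0.01 (adjusted p = 0.843) and 0.02 (adjusted p = 0.797). PSMB1 and PSMB2 had uncorrected values of 0.13 and 0.19 and corrected ones of 0.02 and 0.11, and PSMB2 was called higher with both trends removed, at 0.11 (adjusted p = 0.0441). PSMB3 and PSMB4 passed neither test, with intervals of -0.15 to 0.03 and -0.03 to 0.15.

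None of the 3 immunoproteasome genes was higher with c-di-GMP in either 7-library fit. PSMB8, which takes the place of PSMB5, had 57.8, 56.8 and 55.8 CPM with vehicle and 57.4, 51.8, 59.3 and 59.8 CPM with c-di-GMP, and PSMB9, which takes that of PSMB6, had 28.9, 29.2 and 25.1 CPM with vehicle and 29.2, 24.6, 25.6 and 28.1 CPM with c-di-GMP. Both ranges overlapped, with log2 fold changes of 0.01 ± 0.06 (SE, adjusted p = 0.942) and -0.05 ± 0.07 (SE, adjusted p = 0.675) and 95% intervals of -0.10 to 0.12 and -0.19 to 0.10. The sign of PSMB8 turned when vehicle 4 (-0.0089), c-di-GMP 1 (-0.0030), c-di-GMP 3 (-0.012) or c-di-GMP 4 (-0.022) was left out.

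PSMB10 (chr16:67934502-67937087, minus strand), which takes the place of PSMB7, had 15.6, 14.2 and 14.1 CPM in vehicle 1, 2 and 4, 23.7 CPM in vehicle 3 and 10.8, 10.6, 11.8 and 11.0 CPM with c-di-GMP. Every treated library was below every vehicle library, vehicle 3 included. The log2 fold change was -0.41 ± 0.09 (SE, adjusted p = 0.00106) uncorrected, a difference of -24.5% in CPM and the largest fall of the 48 genes. It was -0.19 ± 0.08 (adjusted p = 0.114) after GC correction, with an interval of -0.35 to -0.03, and -0.27 (adjusted p = 0.0219) with both trends removed. Over all 8 libraries the value was -0.64 ± 0.20 (SE, adjusted p = 0.623). Its transcript has 60.1% GC, and 45.3% of its bases are shared with AC040162.1 on the same strand. That gene had 12 to 25 counts a library and a fold change of 0.52 ± 0.29 (adjusted p = 0.186).

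The ratio of each immunoproteasome subunit to the one it replaces was compared in FPKM, with an exact permutation test over the libraries, two-sided, adjusted over the 3 ratios. Without vehicle 3, PSMB10 over PSMB7 was 0.0806 ± 0.00790 (SD) in the 3 vehicle libraries and 0.0554 ± 0.00234 (SD) in the 4 treated ones, lower in all 4 treated libraries. The exact p of 0.0571 is the smallest that 35 assignments allow (adjusted p = 0.171). PSMB8 over PSMB5 was 0.233 ± 0.00476 with vehicle and 0.231 ± 0.00702 with c-di-GMP (exact p = 0.629). PSMB9 over PSMB6 was 0.102 ± 0.00733 and 0.0977 ± 0.00958 (exact p = 0.571). None of these ratios was corrected for GC content, which was 60.1% for PSMB10 and 49.9% for PSMB7. The part of GC content in the lower ratio of PSMB10 to PSMB7 was not tested. In vehicle 3 the 3 ratios were 0.450 for PSMB8, 0.0825 for PSMB9 and 0.0230 for PSMB10, and with all 8 libraries the exact p was 0.314, 0.914 and 1, where 0.0286 is the smallest possible.

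The activators cap the core in place of the 19S particle. PSME1 and PSME2 form the interferon-inducible cap, PSME3 forms a nuclear one, and PSME4 encodes a large single-chain activator. PSME2, PSME3 and PSME4 were higher uncorrected, and PSME2 and PSME3 after correction. PSME1 had 119, 124 and 123 CPM with vehicle and 125, 110.3, 126 and 116 CPM with c-di-GMP, overlapping ranges, and a fold change of -0.03 ± 0.05 (SE, adjusted p = 0.704), with an interval of -0.12 to 0.07.

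PSME2 (chr14:24143362-24147570, minus strand) had 84.9, 94.0 and 88.1 CPM in vehicle 1, 2 and 4, 453 CPM in vehicle 3 and 103, 96.5, 105 and 104 CPM with c-di-GMP. All treated libraries were above vehicle 1, 2 and 4 and below vehicle 3. It rose by 0.20 ± 0.05 (SE, adjusted p = 0.00293) uncorrected, by 0.23 ± 0.04 (adjusted p = 0.000393) corrected and by 0.21 (adjusted p = 0.000443) with both trends removed. Including vehicle 3, the value was -0.87 ± 0.59 (SE, adjusted p = 0.627). Its difference from PSME1, its partner in the cap, was not tested.

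PSME3 (chr17:42824385-42843758, plus strand) was the gene of the 48 with the smallest p after GC correction. It had 223, 236 and 226 CPM in vehicle 1, 2 and 4, 159.7 CPM in vehicle 3 and 253, 277, 263 and 263 CPM with c-di-GMP. All 4 treated libraries were above all 4 vehicle libraries. It rose by 0.21 ± 0.04 (SE, adjusted p = 0.000633) uncorrected, by 0.20 ± 0.03 (adjusted p = 0.000159) corrected and by 0.21 (adjusted p = 4.04e-05) with both trends removed. Including vehicle 3, the value was 0.31 ± 0.13 (SE, adjusted p = 0.623). PSME4 had 133, 148 and 143 CPM with vehicle and 156, 158, 154 and 158 CPM with c-di-GMP, which did not overlap. Its fold change was 0.14 ± 0.04 (SE, adjusted p = 0.0152), lost without vehicle 1 (adjusted p = 0.0504) or c-di-GMP 4 (0.0600), and 0.04 ± 0.03 (adjusted p = 0.509) after GC correction.

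**Figure D3:**
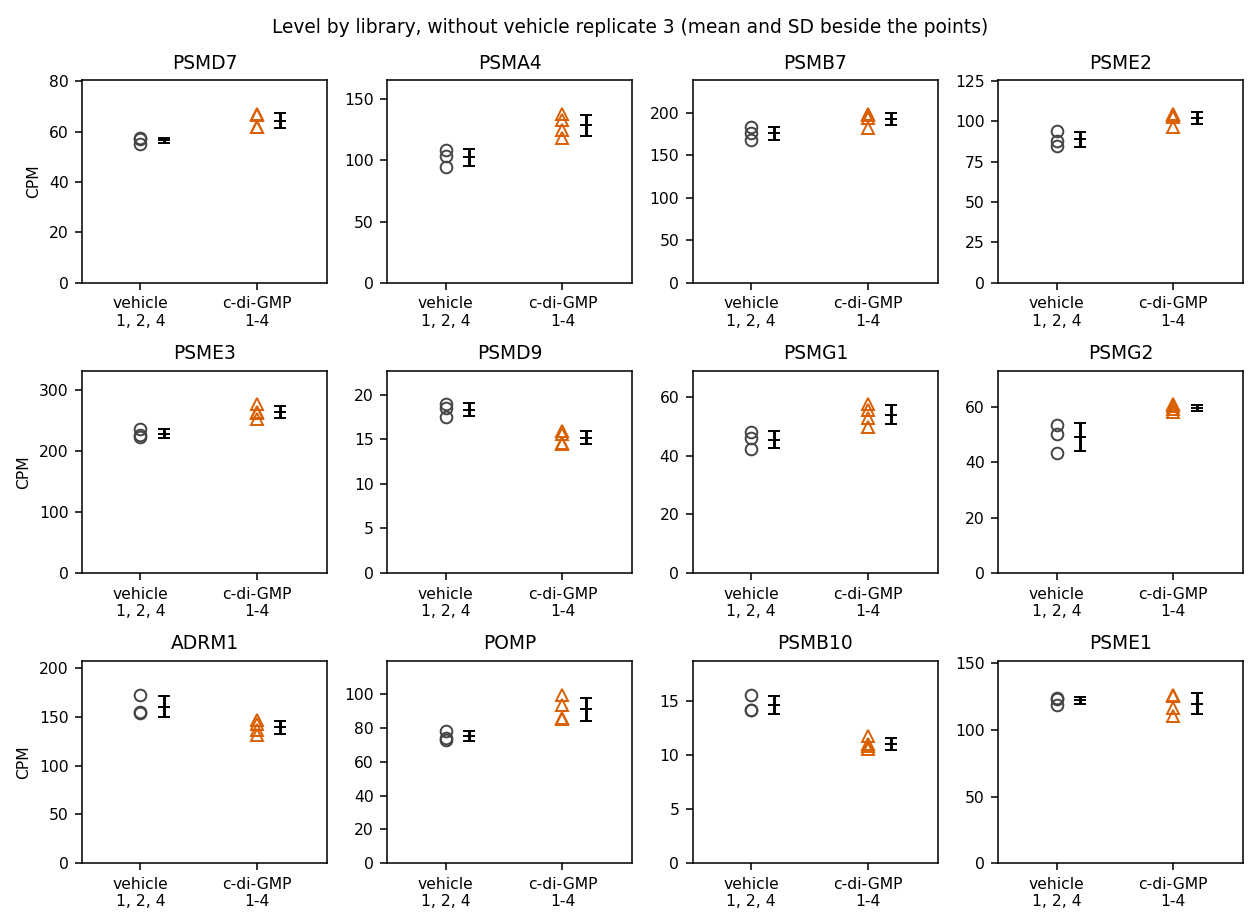
CPM in vehicle 1, 2 and 4 (circles) and c-di-GMP 1 to 4 (triangles), with mean and SD beside them, for the 8 genes called alike in both 7-library fits and for ADRM1, POMP, PSMB10 and PSME1; vehicle 3 is left out. The treatments do not overlap for the first 8 except PSMB7, and they overlap for PSME1.

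Interferon acts on several of these genes through short promoter elements, and the RefSeq promoters (GRCh38.p14, 250 bases before to 50 after the start) were available for 42 of the 48. An interferon-stimulated response element, searched as GAAA, any 2 bases and GAAA on both strands, was found in 6 of them, 14.3%, against 3.65% of all 27305 promoters. They are those of PSMA4, PSMB4, PSMB10, PSME1, PSME2 and PSMG4, of which PSMA4 and PSME2 were higher in both 7-library fits, PSMB10 was lower in the uncorrected one and the others did not pass. A gamma-activated site (TTCNNNGAA) was found in 4 of 42, 9.52%, against 7.88%. The 4 promoters below are shown because they join the genes with opposite calls and the PSME1 and PSME2 pair, with the element in capitals.
PSMA4: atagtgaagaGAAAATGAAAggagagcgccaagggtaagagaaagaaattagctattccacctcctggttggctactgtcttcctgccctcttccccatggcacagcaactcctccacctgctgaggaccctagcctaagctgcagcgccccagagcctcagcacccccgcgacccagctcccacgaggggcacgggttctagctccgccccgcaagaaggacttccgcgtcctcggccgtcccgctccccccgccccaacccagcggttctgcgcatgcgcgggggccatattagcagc
PSMB10: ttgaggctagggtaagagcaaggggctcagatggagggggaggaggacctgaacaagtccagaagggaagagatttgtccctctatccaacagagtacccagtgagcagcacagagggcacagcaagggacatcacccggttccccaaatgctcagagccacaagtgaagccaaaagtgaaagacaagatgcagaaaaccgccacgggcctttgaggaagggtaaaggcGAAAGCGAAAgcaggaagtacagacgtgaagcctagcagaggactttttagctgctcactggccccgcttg
PSME1: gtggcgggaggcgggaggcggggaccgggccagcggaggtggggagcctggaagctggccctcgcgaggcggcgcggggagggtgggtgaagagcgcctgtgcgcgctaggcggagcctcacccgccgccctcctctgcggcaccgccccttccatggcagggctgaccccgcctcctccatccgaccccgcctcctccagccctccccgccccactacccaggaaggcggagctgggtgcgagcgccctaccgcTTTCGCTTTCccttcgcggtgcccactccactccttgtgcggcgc
PSME2: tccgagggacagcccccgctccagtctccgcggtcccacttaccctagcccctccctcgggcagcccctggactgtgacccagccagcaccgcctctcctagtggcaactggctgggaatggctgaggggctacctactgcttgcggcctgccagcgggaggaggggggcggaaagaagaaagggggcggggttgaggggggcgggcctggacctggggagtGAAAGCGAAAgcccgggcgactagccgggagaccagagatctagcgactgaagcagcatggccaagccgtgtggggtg
These windows are chr15:78540155-78540454, plus strand for PSMA4, chr16:67936801-67937100, minus strand for PSMB10, chr14:24135944-24136243, plus strand for PSME1 and chr14:24146561-24146860, minus strand for PSME2. PSMB10, PSME1 and PSME2 hold the same 10 letters, GAAAGCGAAA, in PSME1 on the reverse strand, while PSMA4 has GAAAATGAAA farther from the start. A match is a description of letters and does not show that a factor binds there.

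Of the 5 core assembly factors, POMP, PSMG1 and PSMG2 were higher uncorrected, and PSMG1 and PSMG2 after correction. PSMG1 and PSMG2 form the chaperone pair that starts the alpha ring. PSMG1 (chr21:39174769-39183851, minus strand) had 42.2, 48.1 and 46.2 CPM in vehicle 1, 2 and 4, 285 CPM in vehicle 3 and 57.5, 49.9, 55.5 and 52.9 CPM with c-di-GMP. PSMG2 (chr18:12658043-12725740, plus strand) had 43.5, 53.6 and 50.3 CPM in vehicle 1, 2 and 4, 219.9 CPM in vehicle 3 and 59.4, 58.2, 61.0 and 60.3 CPM with c-di-GMP. For both genes all treated libraries were above vehicle 1, 2 and 4 and below vehicle 3, and vehicle 1 was the lowest library.

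PSMG1 rose by 0.25 ± 0.06 (SE, adjusted p = 0.00327) uncorrected and by 0.20 ± 0.06 (adjusted p = 0.0124) corrected, and was at 0.15 (adjusted p = 0.0559) with both trends removed. PSMG2 rose by 0.28 ± 0.06 (SE, adjusted p = 0.00106) uncorrected, by 0.33 ± 0.06 (adjusted p = 0.00026) corrected and by 0.30 (adjusted p = 0.000293) with both trends removed. With all 8 libraries PSMG1 was at -1.02 ± 0.67 (SE, adjusted p = 0.623) and PSMG2 at -0.67 ± 0.55 (SE, adjusted p = 0.659). The second chaperone pair, PSMG3 and PSMG4, was at -0.06 ± 0.06 (SE, adjusted p = 0.498) and 0.01 ± 0.07 (SE, adjusted p = 0.921) uncorrected, with intervals of -0.18 to 0.06 and -0.12 to 0.14. After GC correction PSMG3 was at 0.12 (adjusted p = 0.226) and PSMG4 at 0.07 (adjusted p = 0.520). With both trends removed they were at 0.04 (adjusted p = 0.717) and 0.12 (adjusted p = 0.239). The difference between the 2 pairs was not tested.

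POMP, which completes the core, had 73.0, 78.3 and 74.2 CPM with vehicle and 85.4, 85.8, 93.3 and 99.7 CPM with c-di-GMP, without overlap. It rose by 0.28 ± 0.05 (SE, adjusted p = 0.00042), and was at 0.13 ± 0.05 (adjusted p = 0.0557) after correction and at 0.04 (adjusted p = 0.603) with both trends removed. At 34.6%, its transcript is low in GC.

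NFE2L1 acts through the antioxidant response element, searched as TGACNNNGC or TGAGNNNGC on both strands. It was found in 20 of 42 promoters of the 48 genes, 47.6%, against 29.4% of all promoters, and CCAAT in 19, 45.2%, against 35.7%. In 1 of the 42 promoters, matches of 2 of the 4 motifs overlapped. Of the 22 genes with a promoter that were higher uncorrected, 11 had the antioxidant element, as had 7 of the 17 that did not pass and 2 of the 3 that were lower. The promoters of PSMG1 (chr21:39183402-39183701, minus strand) and PSMG2 (chr18:12658488-12658787, plus strand), the pair higher in both fits, are shown with this element in capitals.
PSMG1: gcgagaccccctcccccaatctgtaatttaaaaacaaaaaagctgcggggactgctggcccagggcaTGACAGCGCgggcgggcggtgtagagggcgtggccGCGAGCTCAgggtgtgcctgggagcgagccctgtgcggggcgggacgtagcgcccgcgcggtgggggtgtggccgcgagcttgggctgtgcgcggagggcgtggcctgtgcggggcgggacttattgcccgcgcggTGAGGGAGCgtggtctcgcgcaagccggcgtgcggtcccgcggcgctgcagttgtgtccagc
PSMG2: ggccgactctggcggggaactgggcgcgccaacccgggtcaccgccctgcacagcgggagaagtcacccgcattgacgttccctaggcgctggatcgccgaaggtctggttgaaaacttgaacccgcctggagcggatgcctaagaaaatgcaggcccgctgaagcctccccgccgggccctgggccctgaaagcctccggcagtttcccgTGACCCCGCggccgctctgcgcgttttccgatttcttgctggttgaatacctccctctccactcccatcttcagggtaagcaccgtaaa
PSMG1 holds 3 matches, 1 of them on the reverse strand, and PSMG2 holds 1.

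Among the 4 factors that assemble the 19S base, PSMD5 and PSMD10 were higher uncorrected, at 0.12 ± 0.05 (SE, adjusted p = 0.0413) and 0.16 ± 0.05 (SE, adjusted p = 0.0278), and neither was after correction. PSMD9 (chr12:121888731-121918297, plus strand), a chaperone of the base ATPases, had 18.9, 18.5 and 17.5 CPM in vehicle 1, 2 and 4, 31.3 CPM in vehicle 3 and 14.5, 15.6, 14.6 and 15.9 CPM with c-di-GMP. Every treated library was below every vehicle library, vehicle 3 included. Its log2 fold change was -0.27 ± 0.08 (SE, adjusted p = 0.0093) uncorrected, -0.24 ± 0.07 (adjusted p = 0.0219) corrected and -0.20 (adjusted p = 0.0589) with both trends removed. Including vehicle 3, the value was -0.53 ± 0.22 (SE, adjusted p = 0.623). The GC-corrected call was lost without vehicle 1, c-di-GMP 1 or c-di-GMP 3, when 0 of the 48 genes were lower. In the 3 tests on log2 FPKM, PSMD9 was not called (limma, adjusted p = 0.0513 to 0.0556). On the same strand, 43.8% of its transcript is shared with other genes, of which WDR66 was at 0.05 ± 0.09. PAAF1, which keeps free 19S particles from the core, had 15.4, 13.9 and 17.2 CPM with vehicle and 14.8, 13.1, 14.96 and 13.5 CPM with c-di-GMP. These overlapped, with a fold change of -0.14 ± 0.09 (SE, adjusted p = 0.257) and an interval of -0.31 to 0.04.

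Genes that act on the proteasome from outside were counted in 3 further lists. Of 17 shuttle receptors and proteasome-bound factors, 5 were higher and 1 lower uncorrected, and 2 higher and 1 lower after correction. Over all genes 13.5% were higher and 16.2% lower uncorrected, and 8.58% and 6.62% after correction, so that the corrected counts of this list were near those of all genes. TXNL1, a thioredoxin bound to the 19S particle, had 56.2, 66.0 and 62.4 CPM with vehicle and 72.4, 73.9, 74.2 and 73.0 CPM with c-di-GMP, without overlap. It rose by 0.25 ± 0.05 (SE, adjusted p = 0.000824) uncorrected and by 0.13 ± 0.04 (adjusted p = 0.0419) corrected.

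Of 7 genes in the control of proteasome transcription, none was higher and 4 were lower uncorrected, and 1 was lower after correction, where all genes had 16.2% and 6.62% lower. That gene was NFE2L1, with 441, 417 and 410.1 CPM in vehicle 1, 2 and 4, 172 CPM in vehicle 3 and 366, 383, 358 and 355 CPM with c-di-GMP. The treated libraries were all below vehicle 1, 2 and 4, but above vehicle 3. Its fold change was -0.21 ± 0.04 (SE, adjusted p = 0.000527) uncorrected and -0.11 ± 0.03 (adjusted p = 0.0224) corrected. The other 3 lower genes, named after their values were seen, were MAFF, MAFG and MAFK, the small partner proteins of NFE2L1 on DNA. They were at -0.26, -0.23 and -0.31 uncorrected and at 0.00, -0.09 and -0.02 corrected.

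Of 8 genes of the interferon response and peptide loading, 3 were higher (all genes 13.5%) and 3 lower (all genes 16.2%) uncorrected. After correction TAP2 alone was higher, where 8.58% of all genes were, and 1 gene of 8 is near that share. TAP2, a subunit of the peptide transporter, had 85.6, 101 and 93.3 CPM with vehicle and 107, 106, 108 and 107 CPM with c-di-GMP, without overlap, and rose by 0.20 ± 0.05 (SE, adjusted p = 0.00351) and by 0.19 ± 0.04 (adjusted p = 0.00238). A gene on the same strand shares 80.5% of its transcript. TAP1, the other subunit of the transporter, had 122, 118 and 113 CPM with vehicle and 104, 99.4, 102 and 99.1 CPM with c-di-GMP, also without overlap. It fell by 0.21 ± 0.04 (SE, adjusted p = 0.000733) uncorrected and was at -0.07 ± 0.04 (adjusted p = 0.228) corrected. IRF1, an interferon-induced factor, had 41.6, 37.9 and 43.1 CPM and 41.0, 38.1, 39.4 and 34.7 CPM, which overlapped, with a fold change of -0.09 ± 0.06 (SE, adjusted p = 0.291).

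Fold changes of the 48 genes moved with GC content as those of all genes did. Across the 48 genes the uncorrected log2 fold change had a Spearman rho of -0.65 with GC content, against -0.59 across all genes. The corrected one had a rho of 0.30 across the 48, and it was not computed across all genes. These are descriptions across genes that share libraries. The part of GC content in the fold changes of single genes was not tested beyond the corrected fits. The median GC content of the 48 was 47.7%, against 48.3% for all genes. PSMC3, PSMD2, PSMD4, ADRM1, PSMD8 and PSMA7, called higher after GC correction but not uncorrected, had 53.1 to 64.2% GC.

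**Figure D4:**
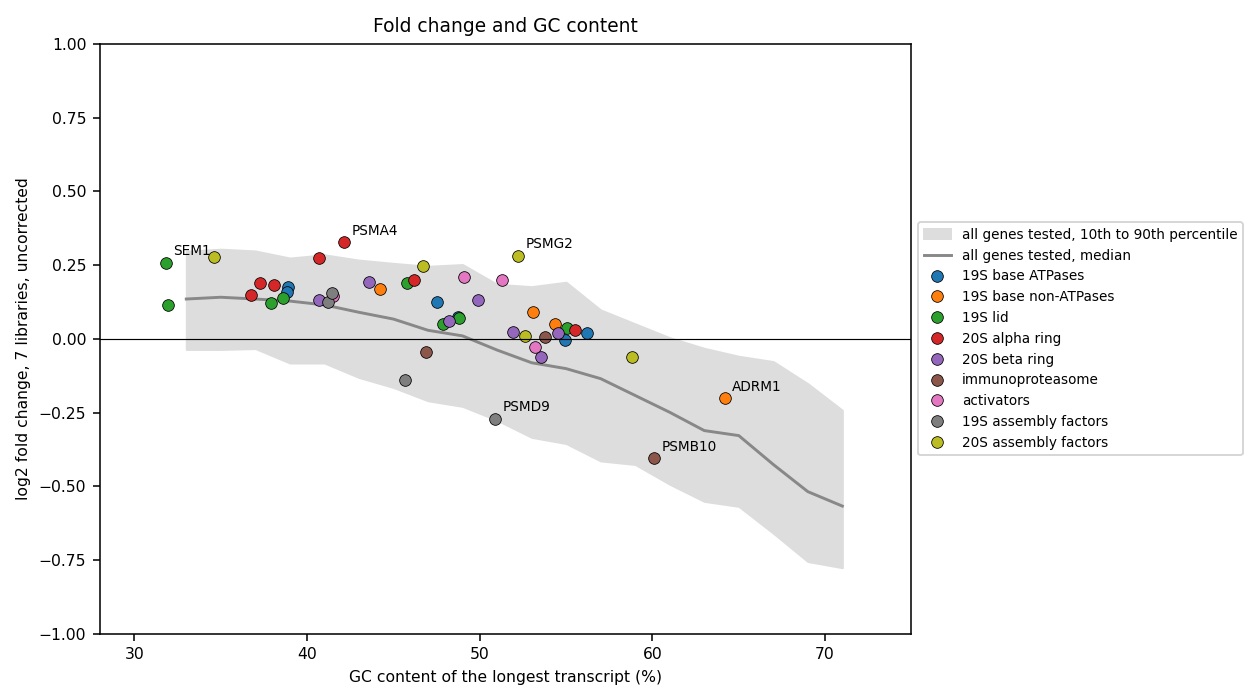
Uncorrected log2 fold change in the 7 libraries (vertical axis) against GC content of the longest transcript (horizontal axis, %), with the 48 genes coloured by role and the median and 10th to 90th percentile of all genes tested as line and band. PSMA4 (0.33) is the highest of the 48 and PSMB10 (-0.41, at 60.1% GC) the lowest, and ADRM1 at 64.2% GC lies above the median of all genes at its GC content.

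In vehicle 3 the parts of the proteasome departed by different amounts from the other vehicle libraries. Of the 48 genes, 28 were more than 2-fold above the mean of vehicle 1, 2 and 4 and 3 were more than 2-fold below it, against 23.6% and 27.6% of all genes. The median log2 difference was 3.10 for the alpha ring, 2.58 for the beta ring, 2.60 for the immunoproteasome, 2.37 for the core assembly factors and 0.54 for the 19S subunits. PSMB3, a beta ring subunit, was 12.5-fold above the mean, and PSMA4 was 10.2-fold above it. PSMD5, PSMA6 and PSMC1 lay at 0.251, 0.265 and 0.441 of it. Across the 48 genes this difference had a rho of -0.42 with the length of the longest transcript (all genes -0.34) and of -0.31 with the summed exon length (all genes -0.28). The alpha ring genes had a median longest transcript of 3729 bases, against 3320 for all genes, and the beta ring genes one of 1294 bases. The longest transcript is not always the principal one. Principal transcripts had 1505, 1487, 970, 1029 and 996 bases in PSMA1, PSMA2, PSMA3, PSMA6 and PSMA7, and 4411 and 3729 in PSMA4 and PSMA5. The part of transcript length in these differences was not tested.

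**Figure D5:**
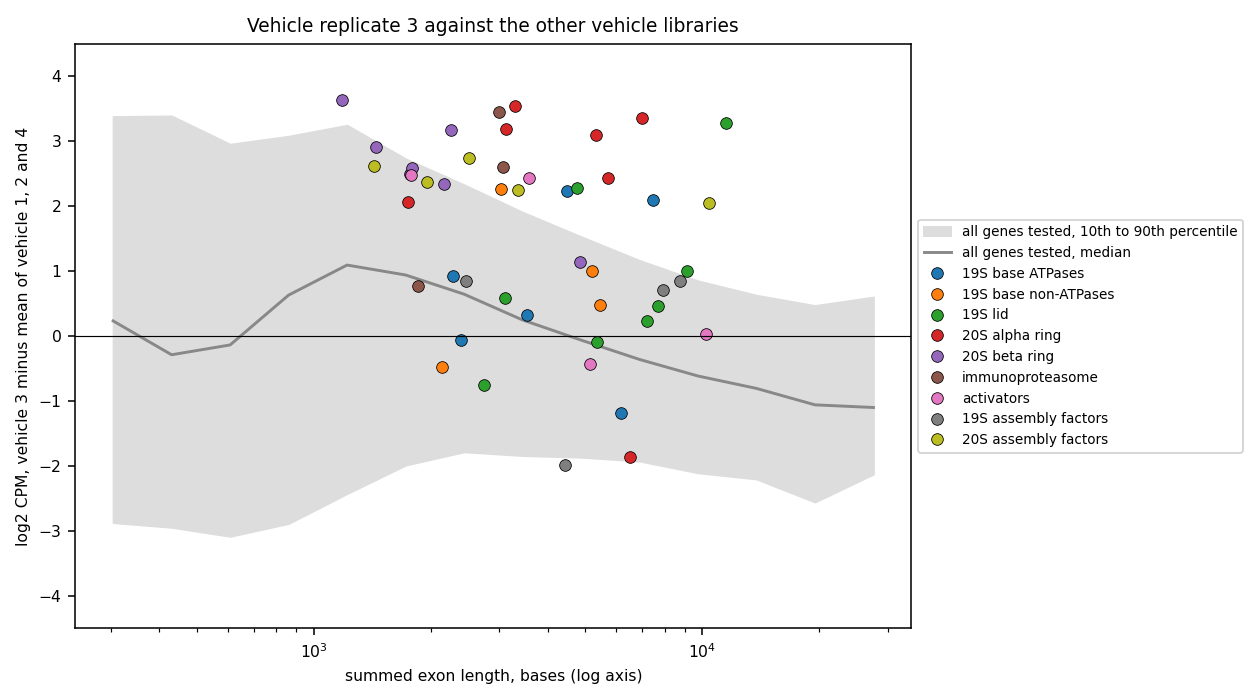
Log2 CPM of vehicle 3 minus the mean of vehicle 1, 2 and 4 (vertical axis) against summed exon length (horizontal log axis, bases) for the 48 genes, coloured by role, with the median and 10th to 90th percentile of all genes tested. Alpha ring genes (median 3.10) and beta ring genes (median 2.58) sit high, while 19S subunits (median 0.54) spread around the line.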

How the data were processed

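RNA from 4 vehicle and 4 c-di-GMP libraries was analysed from a deposited table of read counts and a deposited table of FPKM, each of 16383 genes. The submitters' processing notes list, with no role, featureCounts 1.5.0-p3, HISAT2 2.0.5, DESeq2 1.20.0, CASAVA 1.8 and fastp. They name a mouse build, but the gene identifiers are human and all 16383 positions match GENCODE v29 (GRCh38). How the authors counted strands and shared reads is not given in the sources used here. Both tables look like the top of longer ones, and the least covered gene in the count table had 55 counts. The 22 gene names turned into dates were restored from identifiers.

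Counts as deposited by the authors were filtered with filterByExpr (minimum 10, total 15) and normalised by TMM. edgeR 4.0.16 (R 4.3.3) fitted treatment as the only term with its quasi-likelihood test, with Benjamini-Hochberg adjustment over all genes tested. The 95% intervals are approximate, from the standard error. To correct for GC, the log2 deviation of each library was smoothed by lowess (span 0.3) over the longest transcript's GC content, and the smooth became an offset. A further correction added a trend on gene length; with all 8 libraries it was chosen after seeing the data. FPKM values as deposited by the authors gave levels per length and subunit ratios. On simulated counts with 7 libraries the test recovered 78% of genes changed 1.3-fold. With 8 simulated libraries it recovered 0% of them and 84% of those changed 4-fold. All simulated libraries of a comparison shared the same spread, with no library standing apart and no GC or length trend. These rates therefore do not give the power of the tests on the deposited libraries.

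Values by library are given for the 4 genes with the smallest p each way in the 7 libraries, those called after GC correction, immunoproteasome subunits, activators and the highest and lowest FPKM. Related genes are named if called in both 7-library fits, besides NFE2L1, IRF1 and TAP1; another gene of the interferon list is not reported here. The 48 genes, the lists, the comparison without vehicle 3 and the GC correction were chosen with earlier results of these data known. Alternatives were DESeq2 1.42.0, DESeq2 size factors, library totals, no filter, a filter of 50 counts in as many libraries as the smaller treatment holds, limma 3.58.1 on log2 FPKM, limma-voom with quality weights, a replicate block and leaving out each library.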

Additional observations from a re-analysis of the deposited data

Results flagged for a closer look

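Within the 4 vehicle libraries, 37 of the 48 proteasome genes had vehicle 3 far above the other 3 and 3 genes (PSMC1, PSMD7 and PSMD5) had it far below, by the gap to the nearest library as a share of the range. Vehicle 1 stood high in 1 gene, PSMC4. Among the c-di-GMP libraries, c-di-GMP 1 stood low in 1 gene, PSMA2, and c-di-GMP 4 stood high in 1 gene, PSMD12. Chance alone gives such a gap in about 1 of 20 groups, and over all genes 43.2% of the vehicle groups and 4.99% of the c-di-GMP groups had one. The FPKM ratio of PSMB8 to PSMB5 in vehicle 3, 0.450, also stood far above the other vehicle libraries.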

How the results depend on the processing

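With all 8 libraries, limma-voom with library quality weights called 28 of the 48 genes (35.2% of all genes) and moved the medians to 0.12 (all 48), 0.13 (base ATPases), 0.17 (alpha ring), 0.10 (beta ring), 0.036 (immunoproteasome), 0.17 (activators) and 0.23 (core assembly). PSMA4 (0.28), PSMB7 (0.13), PSME2 (0.21), PSMG1 (0.23) and PSMG2 (0.25) turned positive; the cause was not tested beyond the low weight of vehicle 3. Leaving out each library in turn gave 0 to 27 calls, 27 without vehicle 3, and medians of -0.96 to 0.12 (all 48), -0.18 to 0.10 (base ATPases), -1.55 to 0.19 (alpha), -1.32 to 0.059 (beta), -1.48 to -0.046 (immunoproteasome), -0.50 to 0.17 (activators) and -1.17 to 0.25 (core assembly). Genes ranged from -1.70 to 0.33 (PSMA4), -1.28 to 0.13 (PSMB7), -1.11 to 0.20 (PSME2), -1.29 to 0.25 (PSMG1) and -0.90 to 0.28 (PSMG2). The log2 ratio of PSMB9 to PSMB6 ranged from -0.063 to 0.066, and that of PSMB10 to PSMB7 from -0.54 to 0.12.

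In the 7 libraries, GC correction gave 13 higher and 1 lower, with medians of 0.076 (all 48), 0.13 (base non-ATPases), 0.043 (lid), 0.12 (activators), -0.090 (base assembly) and 0.13 (core assembly). With length also corrected there were 10 higher and 1 lower, with medians of 0.058 (all 48), 0.11 (base non-ATPases), 0.058 (lid), 0.071 (alpha), -0.014 (beta), -0.085 (base assembly) and 0.12 (core assembly). ADRM1 turned to 0.12 and 0.051 under these corrections and PSME1 to 0.038 under the first. On log2 FPKM with 1 added, with or without a minimum FPKM, the median of the base assembly factors was 0.030. Leaving out each library gave 14 (without c-di-GMP 4) to 24 higher, medians of 0.093 to 0.14 (lid), 0.023 to 0.11 (beta) and -0.033 to 0.026 (base assembly), and fold changes of -0.0041 to 0.036 (PSMC3), -0.022 to 0.051 (PSMB8) and -0.058 to 0.0084 (PSME1). After GC correction it gave 7 (without vehicle 1) to 18 higher and 0 to 1 lower. The count of 24 was 22 to 24 under DESeq2, other scaling, filters and FPKM, and that of 3 lower was 2 on FPKM, without PSMD9.

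The replicate numbers did not pair the libraries: deviations of same-numbered libraries correlated at 0.015, -0.0088 and 0.0055. With a replicate block, 18 genes were higher (all genes 11.4%) and 3 lower (14.7%) uncorrected, without PSMC5, PSMD14, PSMB1, PSMB7, PSMD5 and PSMD10, and 9 higher (5.86%) and 0 lower (4.35%) with GC correction, and PSMB8 turned to -0.014; with all 8 libraries 0 were called. Only 3 against 4 libraries limit the 7-library tests, and low counts limit PSMA2, PSMA6, PSMB10, PSMD9 and PAAF1.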
